A study of Rattus norvegicus with 4 samples.

Results

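In neonatal rat ventricular cardiomyocytes given a mimic of miR-93, the RNA of the natriuretic peptides, of most other hypertrophic marker genes and of nearly all Z-disc genes was lower than in cells given a control mimic, while the myosin light chain genes Myl7 and Myl4 and several cardiac transcription factor genes were higher. The comparison sets the miR-93 library against the cel-miR-67 library gene by gene. Its members are the genes with an RPKM (reads scaled to gene length and library size) above 1.0 in both libraries, which are 11280 of the 15731 genes listed. The cells were ventricular cardiomyocytes of wild type Wistar rats at postnatal day 1 (the isolation text of the labels gives day 0), freed from the atria, pre-plated to remove other cells and cultured with 5% serum. The culture described here was transfected with the mimic hsa-miR-93-5p and its control with a mimic of cel-miR-67, a worm miRNA, while 2 further cultures received hsa-miR-25-3p and hsa-miR-106b-5p, and RNA was taken 72 h later. The labels give the dose as 25 nM in 1 place and as 25 mM in another. All 4 cultures share the transfection reagent and medium, each gave 1 library, and the number of animals behind a culture is not given in the sources used here. No difference below therefore has a replicate check, and no test of the mimic was possible.

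A miRNA pairs through its seed, the bases near its 5′ end, with matching sites in messenger RNAs and lowers their stability and translation. miR-93 and miR-106b belong to the miR-17 seed family and are made, together with miR-25, from a cluster of hairpins in the gene Mcm7. The family is known for repressing brakes on cell division and components of TGF-beta signalling. In heart muscle, hypertrophy is the growth of existing myocytes and is accompanied by a return of fetal genes, such as those of the natriuretic peptides and of skeletal actin. The sarcomere is the contractile unit, with thin actin filaments anchored in Z-discs and sliding along thick myosin filaments.

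The mature rat sequences are shown because a miRNA finds its targets through them, and the sequences of the mimics themselves were not used here. They are given 5′ to 3′ with the seed, bases 2 to 8, in capitals, from RefSeq on build GRCr8. All 3 lie on the minus strand of chromosome 12 within the bounds of Mcm7, at chr12:22156894-22156916 for miR-93-5p, chr12:22157103-22157123 for miR-106b-5p and chr12:22156652-22156673 for miR-25-3p.
rno-miR-93-5p: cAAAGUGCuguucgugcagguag
rno-miR-106b-5p: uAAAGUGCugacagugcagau
rno-miR-25-3p: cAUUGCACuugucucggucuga
miR-93-5p and miR-106b-5p share the seed AAAGUGC, whereas the seed of miR-25-3p is AUUGCAC. The libraries hold gene RNA, so the level of the mature miRNAs was not measured in them.

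The reads behind the deposited values could be recovered as whole numbers for all 15731 genes. The listed genes held 16520057 reads in the miR-93 library and 15175185 in the control library, and the median compared gene had 554 and 460 reads. Log2 ratios are miR-93 over cel-miR-67, and for the genes described in full each is followed by its 95% exact (Clopper-Pearson) interval. The interval covers counting error only and says nothing of the spread between cultures. Among the compared genes, 1707 were higher with miR-93 past 1.3-fold, which is 15.1%, and 1762 were lower, which is 15.6%, together 30.8%. Past 2-fold, 192 genes were higher (1.7%) and 289 lower (2.56%). These shares are the background for list counts on the scale of the deposited values, although they varied with gene level, as given below. The lists and their members were chosen with earlier results of these data known. A list count beside these shares is therefore not independent evidence. The median log2 ratio was -0.002, and the middle part of the genes lay between -0.23 and 0.23 (interquartile range). The miR-93 library was the lowest of the 4 libraries in 21.9% of the compared genes and the highest in 23.4%. Among the genes lower past 1.3-fold it was the lowest of the 4 in 63.4%. Among abundant genes the lower ones outnumbered the higher ones. Of the 4570 genes above 10 RPKM in both libraries, 411 were higher and 660 lower. In the sarcomere lists 44 of 51 compared genes were above that limit, and in the actin lists 96 of 131. Of the 147 genes with a mean RPKM above 300, 25.9% were lower and 5.44% higher, whereas of the 2093 genes with a mean between 1 and 3, 15.8% were lower and 21.6% higher.

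The share of the library that fell on listed genes was 60.5% with miR-93 and 66.9% in the control. Scaling to those reads instead of to the library size would raise every log2 ratio by 0.15, bring the median gene to 0.14 and move the share of higher genes among the called ones from 49.2% to 72.3%. A list median lying less than 0.15 below 0 would then turn positive. On that scale 2836 of the 11280 compared genes were higher past 1.3-fold and 1089 lower. Those counts are the background for list counts scaled to listed genes. At the RPKM limit, Bicd1 was just inside with 1.08 RPKM with miR-93 and 1.0016 RPKM in the control, and Nhlrc1 was just outside with 1.35 RPKM with miR-93 and 0.999807 RPKM in the control.

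**Figure D1:**
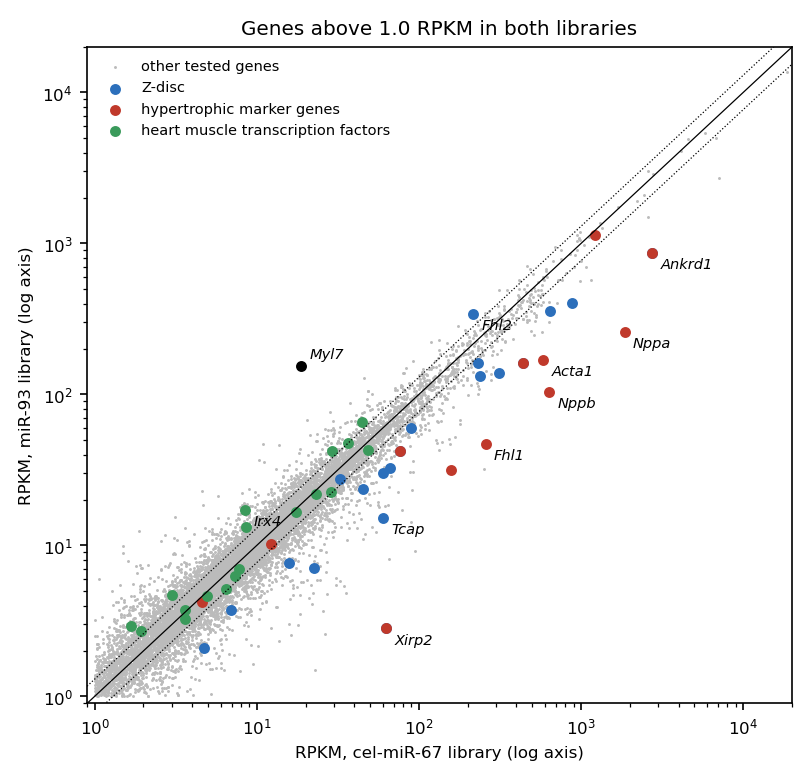
RPKM of each compared gene in the control library (x, log axis) and in the miR-93 library (y, log axis), with the line of equality and dotted lines at 1.3-fold. Points in red are the 12 hypertrophic marker genes (4 of them are also Z-disc genes), points in blue the other Z-disc genes, points in green the cardiac transcription factor genes. Xirp2, Nppa and Nppb lie farthest below the line among the marked genes, and Myl7 lies above it.

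The cells carried the RNA their label calls for. Of 8 cardiomyocyte markers and 4 ventricular markers, every one was above 1.0 RPKM in both libraries. The summed level of the cardiomyocyte markers was 7204 RPKM with miR-93 and 11764 RPKM in the control, and most of that difference was Actc1. The 16 fibroblast markers summed to 991 and 1163 RPKM, the 11 smooth muscle and pericyte markers to 633 and 797 RPKM, the 10 endothelial markers found to 10.0 and 12.97 RPKM, and the 13 macrophage markers to 27.7 and 26.5 RPKM. Of these other cell types, fibroblast and smooth muscle markers had the highest summed levels in both libraries. No list was at 0 throughout. In bulk RNA, fewer cells of a type and less RNA per cell cannot be told apart.

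Hypertrophic marker genes were the list with the lowest median. All 12 were compared, 9 were lower past 1.3-fold against a background of 15.6%, 0 were higher, and 8 were lower past 2-fold. The median log2 ratio was -1.72, beside -0.002 over all compared genes, while the same control library gave -0.35 for miR-106b and -0.17 for miR-25. In all 9 lower genes the miR-93 library was the lowest of the 4, beside 63.4% of all lower genes.

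Nppa encodes atrial natriuretic peptide, a hormone released by stretched heart muscle. Its level was 261 RPKM with miR-93, 1860.4 RPKM in the control, 1607 RPKM with miR-106b and 4425 RPKM with miR-25. The miR-93 library thus stood far below the other 3, and the log2 ratio was -2.83 (-2.87 to -2.79), or 7.12-fold lower. Nppb, the gene of B-type natriuretic peptide, was at 104 RPKM with miR-93, 636 RPKM in the control, 578 RPKM with miR-106b and 673 RPKM with miR-25. The control, miR-106b and miR-25 libraries lay close together, and the log2 ratio for miR-93 was -2.61 (-2.71 to -2.51), or 6.11-fold lower. Acta1 encodes skeletal muscle actin, the fetal actin of the heart. It had 169.9 RPKM with miR-93, 587 RPKM in the control, 471 RPKM with miR-106b and 738 RPKM with miR-25, a log2 ratio of -1.79 (-1.83 to -1.75) for miR-93. Rcan1, an inhibitor and transcriptional readout of calcineurin, had 31.4 RPKM with miR-93, 158 RPKM in the control, 75.8 RPKM with miR-106b and 122 RPKM with miR-25. All 3 mimic libraries were below the control for Rcan1, miR-93 most, with a log2 ratio of -2.33 (-2.40 to -2.26).

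Xirp2, whose protein binds actin at the Z-disc and the intercalated disc, had the lowest ratio of all list members. It was at 2.82 RPKM from 935 reads with miR-93 and at 63.0 RPKM from 17320 reads in the control, with 20.6 RPKM in the miR-106b and 48.7 RPKM in the miR-25 library. The log2 ratio was -4.48 (-4.58 to -4.38), or 22.3-fold lower, and the miR-106b library lay between the 2. Fhl1, a LIM domain protein of the sarcomere that takes part in the hypertrophic response, was at 47.3 RPKM with miR-93, 259 RPKM in the control, 163 RPKM with miR-106b and 263 RPKM with miR-25. Its log2 ratio was -2.45 (-2.49 to -2.41), with the miR-25 library level with the control. Ankrd1, a stretch-responsive cofactor found at the sarcomere and in the nucleus, had 871 RPKM with miR-93, 2753 RPKM in the control, 1736 RPKM with miR-106b and 1976 RPKM with miR-25. Its log2 ratio was -1.66 (-1.68 to -1.64), or 3.16-fold lower, and it was the most abundant gene of the list in the control library.

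The remaining members moved less. Csrp3, the muscle LIM protein, was 2.72-fold lower, from 437 to 161 RPKM, and Xirp1, a relative of Xirp2, was 1.82-fold lower, from 77.0 to 42.2 RPKM. Myh7, the slow myosin heavy chain that rises in rodent hypertrophy, stayed within 1.3-fold at 1137 RPKM with miR-93 and 1226 RPKM in the control. Its log2 ratio of -0.11 (-0.12 to -0.10) turns positive under the scaling to listed genes. Uchl1 (-0.26, -0.50 to -0.02) and Gdf15 (-0.11, -0.52 to 0.30) also lay within 1.3-fold. The scaling to listed genes left the same number lower, 9 of 12, and a median of -1.58.

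**Figure D2:**
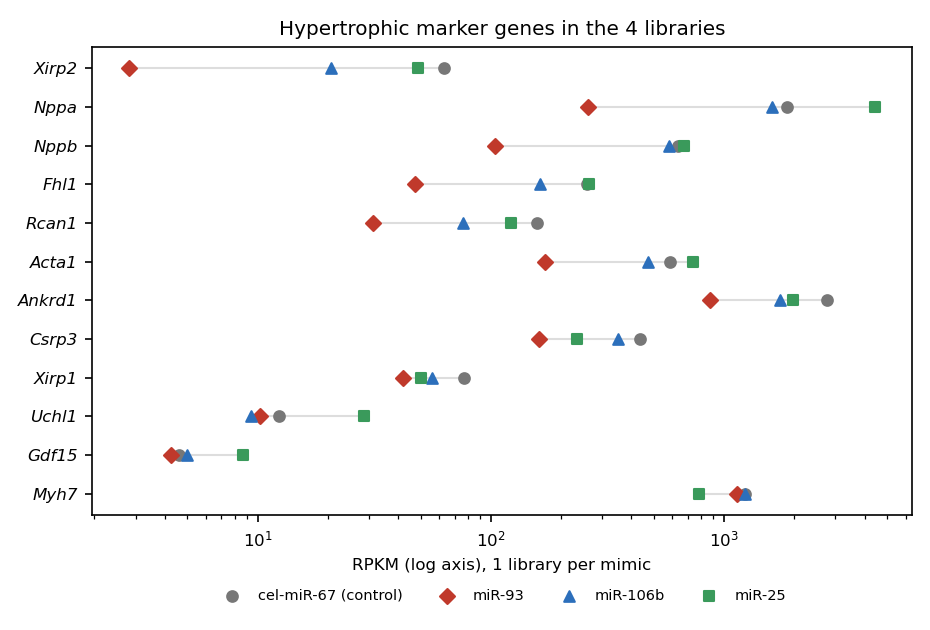
RPKM (log axis) of the 12 hypertrophic marker genes in the 4 libraries, 1 library per mimic, ordered by the miR-93 ratio. The miR-93 library (diamonds) is the lowest for the 9 genes from Xirp2 to Xirp1, and for Nppa it is at 261 RPKM where the others lie between 1607 and 4425 RPKM.

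Genes that process or receive the peptides were called in both directions. Furin, a protease that cleaves prohormones, was lower at -0.75 (-0.83 to -0.67), but Corin, the protease that activates the atrial peptide, was higher at 0.58 (0.33 to 0.82), from 2.58 to 3.85 RPKM. Of the receptors, Npr3, which clears the peptides, was higher at 0.95 (0.75 to 1.15), and Npr1 and Npr2 lay within 1.3-fold at -0.07 and 0.33.

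Of 18 compared cardiac transcription factor genes, 8 were higher past 1.3-fold, against 15.1% of all compared genes, 0 were lower and 10 lay within it, and the list median of -0.01 was close to that of all genes. Irx4, a ventricular identity factor, had 17.2 RPKM with miR-93, 8.47 RPKM in the control, 13.1 RPKM with miR-106b and 2.46 RPKM with miR-25, and a log2 ratio of 1.03 (0.87 to 1.18). The other 7 were Prox1 (0.81), Tbx5 (0.64), Gata6 (0.62), Hand2 (0.56), Nkx2-5 (0.52), Klf15 (0.49) and Mef2a (0.39). Hand2, a factor of ventricular development, was at 66.0 RPKM with miR-93 and 44.9 RPKM in the control, with 58.2 RPKM in the miR-106b and 23.4 RPKM in the miR-25 library. Gata4, which drives the natriuretic peptide genes, was at -0.07 (-0.16 to 0.02), and Mef2d at -0.33 (-0.56 to -0.10), both within 1.3-fold. The serum response factor gene Srf was at -0.34 (-0.42 to -0.26), also within it.

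Calcineurin subunits did not pass 1.3-fold. Among 16 genes of calcineurin, CaMK and class II histone deacetylases, 3 were lower and 3 higher, or 18.75% in each direction. Over all compared genes 15.6% were lower and 15.1% higher. The lower ones were Rcan1, Myoz2 (-0.85, -0.90 to -0.80), which encodes a Z-disc protein that binds calcineurin, and Dyrk1a (-0.63, -0.74 to -0.52), a kinase that opposes NFAT. The higher ones were Camk2d (0.48, 0.41 to 0.56), the main cardiac CaM kinase, and the deacetylase genes Hdac9 (0.62) and Hdac7 (0.39). Over all 50 compared genes of the hypertrophy lists, 12 were lower and 13 higher and the median was -0.09, or 0.054 when scaled to listed genes, with 9 of the 12 lower genes in the marker list.

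Promoter letters are shown for members that moved, since skeletal and cardiac actin genes carry CArG boxes, the sequence that serum response factor binds. Windows from 250 bases before to 50 after the RefSeq start were searched on both strands, and 1.64% of all 33469 windows held a CArG box. Counted by gene, 112 of the 7790 compared genes with a window held the box (1.44%). Among the hypertrophic marker genes 10 had a window and 2 held the box, Acta1 and Fhl1. Actc1 also held it, just past its start, and Fhl2, which was higher with miR-93, held it at 2 annotated starts. Each line gives 30 bases on build GRCr8, 5′ to 3′ on the gene's strand, with the box in capitals.
Acta1: tgcccaacacCCAAATATGGcttgggaagg
Fhl1: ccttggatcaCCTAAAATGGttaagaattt
Fhl2: catttagagaCCAAAAATGGcttgcaggag
Fhl2: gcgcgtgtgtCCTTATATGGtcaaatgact
They lie at chr19:68784269-68784298 (minus strand), chrX:139638384-139638413 (plus strand), chr9:52954616-52954645 and chr9:52923365-52923394 (both minus strand), with the box starting at -94, -102, -95 and -58 from the start of transcription. Rnd3, lower at -0.52, also held the box. Among genes with a window, 19 of 1156 lower past 1.3-fold held the box (1.64%), as did 20 of 1151 higher (1.74%). Within 1.3-fold it was 73 of 5483 (1.33%). Only 7790 of the 10986 compared genes with a symbol listed once had a window, so the shares leave out the other genes. No result about gene classes is drawn from them, and a match is not a binding site.

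Sarcomere genes were lower more often than the background, and most of the lower ones were Z-disc genes. Of 51 compared sarcomere genes, 26 were lower and 8 higher, with a median of -0.38 that became -0.24 when scaled to listed genes. In the Z-disc list 18 of 20 were lower against a background of 15.6%, 10 of them past 2-fold, with a median of -1.01 beside -0.46 for miR-106b and -0.51 for miR-25. The miR-93 library was the lowest of the 4 in 14 of the 18, beside 63.4% of all lower genes. On the scale of listed genes 17 of the 20 remained past 1.3-fold. The summed cardiomyocyte markers were lower with miR-93 mainly through Actc1, itself a sarcomere gene, while of the 8 markers 3 were lower, 2 higher (Tnni3 and Nkx2-5) and 3 within 1.3-fold, with a median of -0.096, and their part in the result was not tested.

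Tcap encodes telethonin, which caps titin in the Z-disc. It had 15.3 RPKM with miR-93, 60.4 RPKM in the control, 29.6 RPKM with miR-106b and 30.3 RPKM with miR-25, so the 3 mimic libraries were all below the control, and the log2 ratio for miR-93 was -1.98 (-2.21 to -1.75). Pdlim5, a scaffold that ties kinases to alpha-actinin, had 139 RPKM with miR-93, 311 RPKM in the control, 179 RPKM with miR-106b and 297 RPKM with miR-25, and a log2 ratio of -1.16 (-1.20 to -1.12). Here miR-25 was level with the control and miR-106b lay between. Des encodes desmin, the intermediate filament that links Z-discs. It had 358 RPKM with miR-93, 641 RPKM in the control, 460.0 RPKM with miR-106b and 858 RPKM with miR-25, a log2 ratio of -0.84 (-0.87 to -0.82) for miR-93 and a higher level with miR-25. Cryab, the small heat shock protein that protects desmin and titin, was 2.18-fold lower, from 879.6 to 404 RPKM. Actn2, alpha-actinin itself, was among the least lowered at -0.51 (-0.54 to -0.48), from 230.1 to 162 RPKM.

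The other lowered Z-disc genes were Synpo2 (-1.67), Mypn (-1.18), Synpo2l (-1.04), Pdlim3 (-1.02), Flnc (-0.997), Murc (-0.95), Bag3 (-0.89) and Nexn (-0.56), besides Xirp2, Xirp1, Ankrd1, Csrp3 and Myoz2 described above. Flnc, the muscle filamin, and Bag3, which clears damaged filamin, lay close together. Ldb3 lay within 1.3-fold at -0.25 (-0.29 to -0.21). Fhl2 was the exception, with 343 RPKM with miR-93, 215 RPKM in the control, 308 RPKM with miR-106b and 81.4 RPKM with miR-25, and a log2 ratio of 0.67 (0.62 to 0.72).

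In the thin filament 5 of 11 genes were lower and 2 higher. Actc1, cardiac actin, had 2733 RPKM with miR-93, 7073 RPKM in the control, 5034 RPKM with miR-106b and 4953 RPKM with miR-25. Its log2 ratio of -1.37 (-1.38 to -1.36) rests on 111144 and 238789 reads. Both sarcomeric actin genes were thus lower, while Acta2, Actg2, Actb and Actg1, the smooth muscle and cytoplasmic actins, lay between -0.24 and 0.15, all within 1.3-fold. These actin genes are near-identical in sequence, the sources used here do not state how shared reads were counted, and the split between them is uncertain. Lmod2, which lengthens thin filaments, was 3.21-fold lower, from 167 to 52.0 RPKM, with 117 RPKM in the miR-106b and 78.3 RPKM in the miR-25 library. The troponins did not move together. Tnnc1, troponin C, was lower at -0.78 (-0.80 to -0.76) and Tnni3, the adult cardiac troponin I, was higher at 0.49 (0.45 to 0.54), whereas Tnnt2 (-0.21) and Tnni1 (0.27) lay within 1.3-fold. Of the tropomyosins Tpm2 was lower (-0.63), Tpm3 higher (0.44) and Tpm1, the main cardiac one, at -0.36 (-0.38 to -0.34), short of the limit.

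In the thick filament all 3 heavy chain genes lay within 1.3-fold. Myh6, the fast heavy chain, was at 0.06 (0.05 to 0.07), with 1362 RPKM with miR-93 against 1307 RPKM in the control, Myh7 is given above, and Myh7b, at 0.35 (0.19 to 0.51), passes 1.3-fold upward on the scale of listed genes. The light chains split by chamber type. Myl7, the atrial regulatory light chain, had 155 RPKM with miR-93, 18.8 RPKM in the control, 81.2 RPKM with miR-106b and 11.6 RPKM with miR-25. Its log2 ratio was 3.04 (2.95 to 3.14), or 8.22-fold higher. This was the highest among genes above 10 RPKM in both libraries with a symbol listed once. Myl4, the atrial essential light chain, had 149.8 RPKM with miR-93, 83.2 RPKM in the control, 262 RPKM with miR-106b and 90.2 RPKM with miR-25, a log2 ratio of 0.85 (0.76 to 0.94) for miR-93 and its highest level with miR-106b. The ventricular light chains were lower or level, Myl2 at -0.45 (-0.47 to -0.44), which is within 1.3-fold on the scale of listed genes, and Myl3 at -0.09 (-0.11 to -0.07). The remaining atrial markers gave no single direction, with Stard10 (1.26), Dkk3 (0.77) and Gja5 (0.76) higher, Nppa and Sln (-0.50) lower, and Kcnj3 (-0.12) within 1.3-fold.

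Among 11 compared titin-associated and M-band genes, 2 were lower and 3 higher, and titin itself was not matched in the table. Myom2, an M-band protein, was at -0.51 (-0.58 to -0.44), and Smyd2, a methyltransferase that binds titin, at -0.38 (-0.46 to -0.31), just past the limit. Ckm, the muscle creatine kinase (0.56, 0.51 to 0.61), Obsl1 (0.54) and Trim54 (0.45) were higher.

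**Figure D3:**
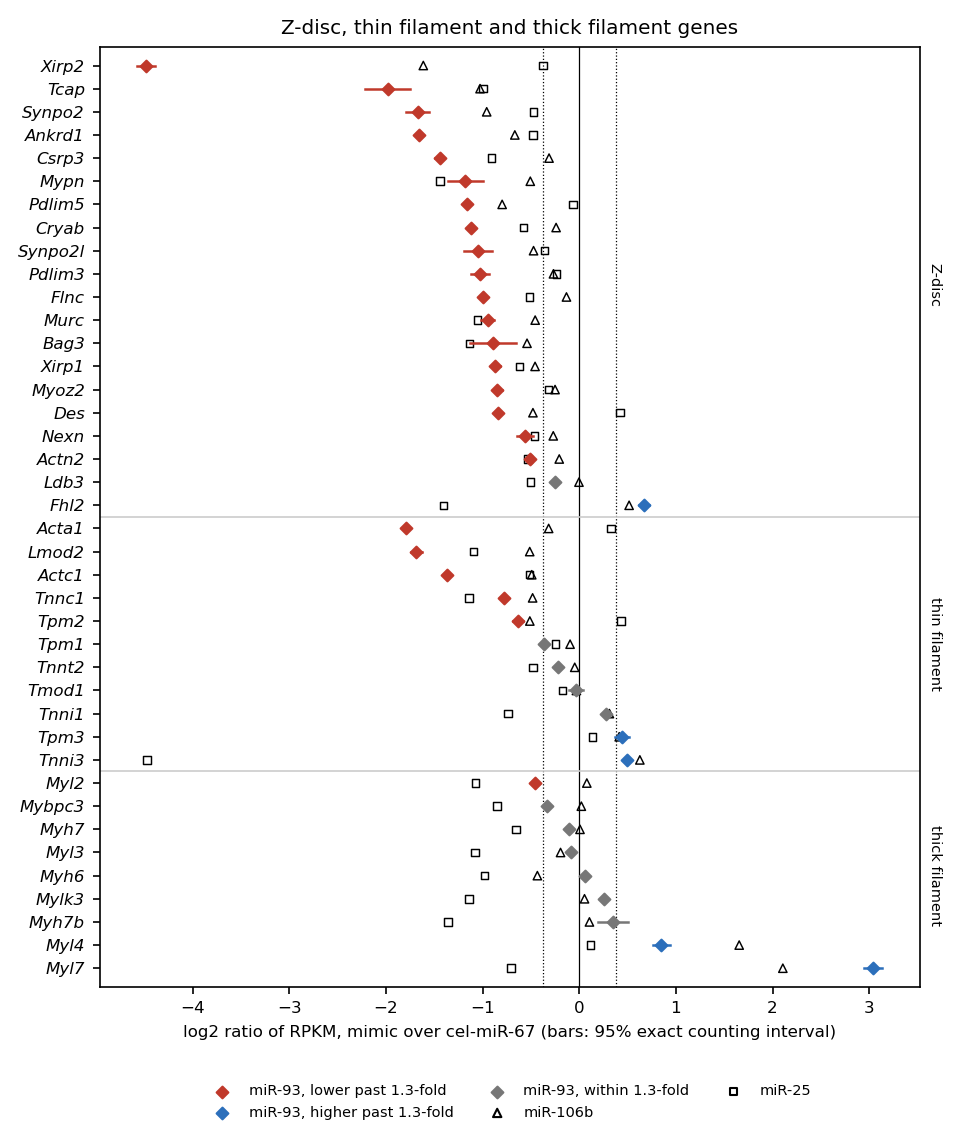
Log2 ratios of RPKM, mimic over cel-miR-67, for the compared Z-disc, thin filament and thick filament genes; filled diamonds are miR-93 with its 95% exact counting interval, open triangles miR-106b and open squares miR-25, and dotted lines mark 1.3-fold. All Z-disc genes but Ldb3 and Fhl2 lie left of the lower line for miR-93, and Myl7 lies farthest right.

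Genes of excitation and calcium handling were called in both directions. Of 24 calcium handling genes 6 were lower (25%) and 4 higher (16.7%), beside 15.6% and 15.1% of all compared genes. On the scale of listed genes 5 were lower and 6 higher, beside 1089 and 2836 of all 11280. Casq2, calsequestrin of the cardiac calcium store, had 301 RPKM with miR-93, 636 RPKM in the control, 445 RPKM with miR-106b and 302 RPKM with miR-25, a log2 ratio of -1.08 (-1.10 to -1.06) for miR-93 and a like level with miR-25. Casq1, its skeletal relative, was lower with miR-93 at -1.35 (-1.42 to -1.29) but at 373 RPKM with miR-25 against 127 RPKM in the control. Ryr2, the calcium release channel, was at -0.62 (-0.64 to -0.59), Jph1, which holds the release unit together, at -0.88, Cacna2d1, a subunit of the calcium channel, at -0.86 and Sln, a small inhibitor of the pump, at -0.50. Against these, the calcium pump gene Atp2a2 was higher at 0.42 (0.41 to 0.43), from 422 to 565 RPKM, with 103 RPKM in the miR-25 library. Its inhibitor Pln lay within 1.3-fold at -0.22 (-0.25 to -0.20).

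The largest rises of the group were in genes of low level. Hrc, a calcium-binding protein of the store, had 15.4 RPKM with miR-93, 3.16 RPKM in the control, 13.9 RPKM with miR-106b and 0.750 RPKM with miR-25, a log2 ratio of 2.29 (2.06 to 2.52) for miR-93. Cacna1h, a T-type calcium channel of the fetal heart, was at 1.86 (1.69 to 2.03), and Scn4b, a sodium channel beta subunit, at 2.73 (2.51 to 2.97), from 1.87 to 12.4 RPKM. For all 3 the miR-106b library was above and the miR-25 library below the control. The potassium channel genes Kcnh2 (0.55) and Kcnj2 (0.39) and the pacemaker channel gene Hcn4 (0.38) were higher.

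At the intercalated disc, where myocytes join, 3 of 13 genes were lower and 3 higher. The lower ones were the anchoring genes Nrap (-1.59, -1.66 to -1.53), Dsc2 (-1.44, -1.65 to -1.24) and Pkp2 (-0.92, -1.001 to -0.85), of which the last 2 encode desmosome proteins. The higher ones were the gap junction genes Gja1 (0.62, 0.57 to 0.67) and Gja5 (0.76, 0.61 to 0.91), which carry current between cells, and Ctnnb1 (0.39). Gja1 stood at 110.3 RPKM with miR-93 and between 71.7 and 74.6 RPKM in the other 3 libraries.

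Actin cytoskeleton genes were lower more often than the background. Of 131 compared, 37 were lower, which is 28.2%, and 13 higher, which is 9.92%. The miR-93 library was the lowest of the 4 in 33 of the 37, beside 63.4% of all lower genes. The median was -0.14, or 0.0095 when scaled to listed genes, beside -0.002 and 0.14 over all compared genes. The sign of the group median thus depends on the scaling. Its place below the median of all compared genes and its large falls do not. The smooth muscle and fibroblast markers summed lower with miR-93 as well, as given above, and their part in these values was not tested.

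The falls were spread over elongation, severing and adhesion. Enah, which extends actin filaments and is found at the intercalated disc, had 14.3 RPKM with miR-93, 89.3 RPKM in the control, 37.7 RPKM with miR-106b and 89.1 RPKM with miR-25. It was 6.23-fold lower (-2.64, -2.74 to -2.54), with miR-25 level with the control. Its relative Vasp was at -0.40 and its relative Evl was higher at 0.67 (0.34 to 1.01), from 2.28 to 3.63 RPKM. None of the 9 compared Arp2/3 complex genes passed 1.3-fold. Formins were split, with Diaph1 (-0.42) and Diaph3 (-0.41) lower and Fmnl2 (0.50), Fhod1 (0.61) and Daam2 (0.63) higher.

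Cfl2, muscle cofilin, which severs actin filaments, had 46.7 RPKM with miR-93, 155 RPKM in the control, 84.6 RPKM with miR-106b and 132 RPKM with miR-25, and a log2 ratio of -1.73 (-1.78 to -1.68). Dstn, a further severing factor, was lower at -0.61 (-0.65 to -0.58), and the non-muscle cofilin Cfl1 lay within 1.3-fold at -0.29 (-0.34 to -0.25). The phosphatase gene Ssh3 (-0.99, -1.35 to -0.64), which activates cofilin, was lower. The cofilin kinase gene Limk1 was outside the comparison, with 0.676 RPKM with miR-93 and 1.64 RPKM in the control.

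Among 37 crosslinking and adhesion genes 16 were lower and 4 higher (12 and 4 when scaled to listed genes), and 12 of the 22 that link actin to adhesions were lower. Itga7, the laminin receptor of muscle, had 7.73 RPKM with miR-93, 27.2 RPKM in the control, 12.8 RPKM with miR-106b and 33.0 RPKM with miR-25, a log2 ratio of -1.81 (-1.91 to -1.72). The integrin genes Itga5 (-1.17) and Itgb1 (-0.63), the kinase Ilk (-0.74), zyxin (Zyx, -0.69) and talin (Tln1, -0.64) were lower with it. Itgb1 was the most abundant of them, at 409 RPKM with miR-93 and 632 RPKM in the control. Vcl, vinculin, lay within 1.3-fold at -0.18. Dst (-1.20), a large linker protein, and the membrane linker Msn (-0.97, -1.01 to -0.93) were also lower, while its relative Ezr was higher at 0.48 (0.42 to 0.54), as was Palld at 0.79 (0.62 to 0.95).

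Of 27 genes of small GTPases and their regulators 7 were lower and 3 higher, or 4 and 3 when scaled to listed genes. Rhoc, a GTPase that promotes actin contraction, had 23.2 RPKM with miR-93, 90.9 RPKM in the control, 33.9 RPKM with miR-106b and 100.1 RPKM with miR-25. It was 3.93-fold lower (-1.97, -2.07 to -1.88), while Rhoa was at -0.23 and Rac1 and Cdc42 also lay within 1.3-fold. Arhgap24 (-1.32, -1.500 to -1.13) and Arhgef3 (-1.16, -1.35 to -0.97), which switch such GTPases off and on, were both lower. The higher genes included Ect2 (0.53) and Racgap1 (0.40), which act in cell division. In the smooth muscle list Cnn1 (-0.96, -1.05 to -0.88) and Myl9 (-0.62, -0.65 to -0.59) were lower, Mylk (0.49) was higher, and Cnn1 was at 278 RPKM with miR-25 against 88.8 RPKM in the control.

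**Figure D4:**
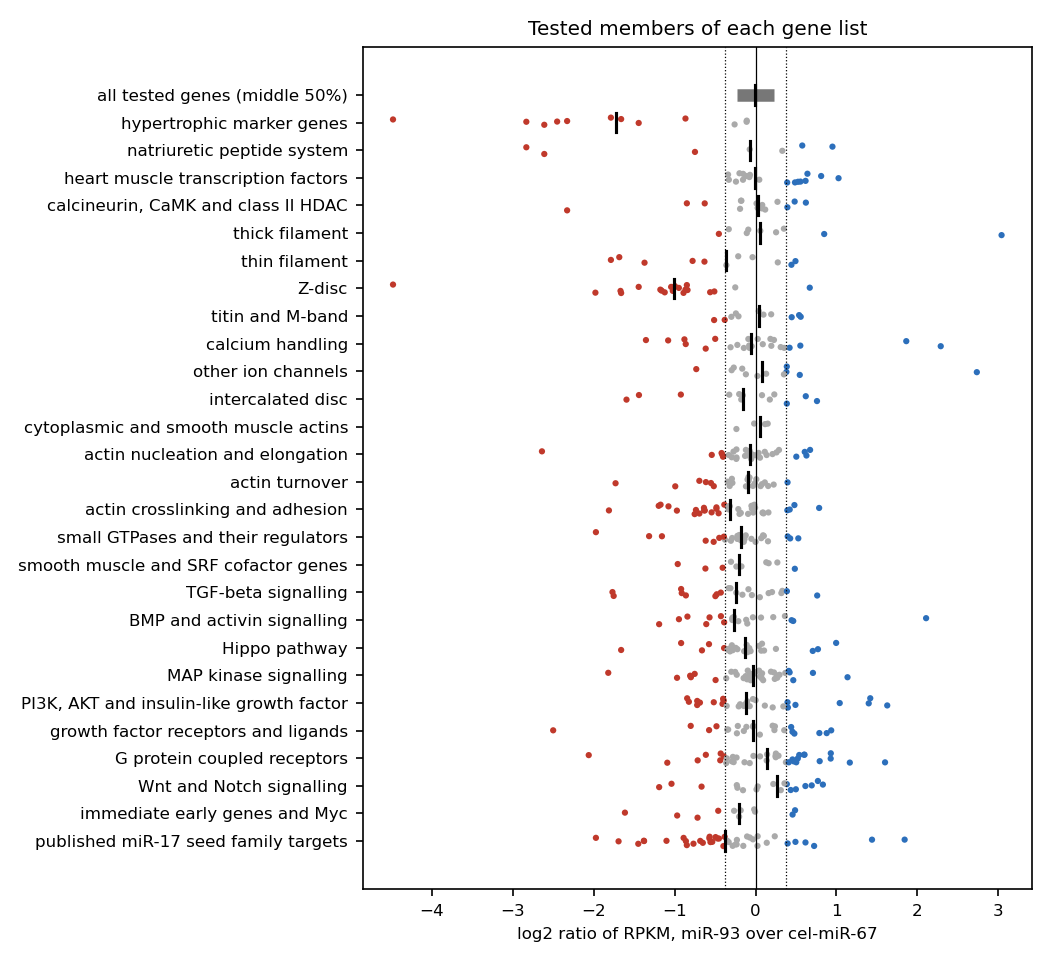
Log2 ratios of RPKM, miR-93 over cel-miR-67, of the compared members of each gene list; red points are lower and blue points higher past 1.3-fold, grey points lie within it, black bars are list medians, and the grey bar on top spans the interquartile range of all compared genes. The medians of the hypertrophic marker genes (-1.72) and of the Z-disc genes (-1.01) lie farthest left.

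Signalling genes were called in both directions at shares above the background, with 52 of 223 lower (23.3%) and 48 higher (21.5%) and a median of -0.07 that became 0.07 on the scale of listed genes. In the TGF-beta list 8 of 21 genes were lower and 2 higher, but scaled to listed genes 5 were lower and 4 higher. Tgfb2, a ligand, had 18.3 RPKM with miR-93, 61.8 RPKM in the control, 35.7 RPKM with miR-106b and 79.9 RPKM with miR-25, and a log2 ratio of -1.75 (-1.82 to -1.69). The receptor gene Tgfbr2 had 9.27 RPKM with miR-93, 16.8 RPKM in the control, 8.36 RPKM with miR-106b and 20.4 RPKM with miR-25, and a log2 ratio of -0.86 (-1.0005 to -0.72). It was low in both libraries of mimics with the seed AAAGUGC and not in the miR-25 library. All 3 compared target genes of the pathway were lower, among them Tgfbi (-1.77, -1.97 to -1.57) and Ctgf (-0.92, -0.96 to -0.88). None of the 5 compared Smad genes of this list passed 1.3-fold, and Bambi, a decoy receptor that blocks the pathway, was higher at 0.76 (0.61 to 0.91). Of 14 compared fibroblast markers 6 were lower (42.9%, beside 15.6% of all compared genes) and 0 higher, with Dcn at -1.47 and Col1a1 at 0.15. The fibroblast median was -0.23 with miR-93, -0.35 with miR-106b and -0.71 with miR-25. For the TGF-beta list the medians were -0.24, -0.18 and 0.16. The part of the fibroblast markers in the result was not tested.

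In the BMP and activin list 7 of 21 genes were lower and 3 higher, or 5 and 4 when scaled to listed genes. Inhba, which encodes the activin A subunit, was at -1.19 (-1.34 to -1.04), its antagonist gene Fst at -0.95 and the receptor gene Bmpr1a at -0.61. Inha, the inhibin subunit that opposes activin, was higher at 2.11 (1.94 to 2.28), but it was above the control with all 3 mimics, at 62.4 RPKM with miR-106b, 47.3 RPKM with miR-93 and 63.8 RPKM with miR-25 against 11.0 RPKM. Bmpr2 lay within 1.3-fold at -0.28 (-0.40 to -0.17).

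In the Hippo pathway, which restrains growth through the cofactor Yap1, 5 of 26 genes were lower (19.2%) and 3 higher (11.5%). Over all compared genes 15.6% were lower and 15.1% higher. Yap1 had 19.7 RPKM with miR-93, 12.1 RPKM in the control, 16.3 RPKM with miR-106b and 22.2 RPKM with miR-25. The control library was the lowest of the 4 for Yap1. Tead2, a DNA-binding partner of Yap1, was at 10.5 RPKM with miR-93 and 6.15 RPKM in the control, and the kinase gene Lats2 lay within 1.3-fold at -0.25 (-0.34 to -0.15). Of 4 compared target genes 3 were lower, Ankrd1, Ctgf and Cyr61 (-0.66, -0.75 to -0.58), and Axl was at -0.29. Yap1 and Tead2 were the only 2 of 7 compared effector genes past 1.3-fold. Scaled to listed genes, 4 genes of the list were lower and 4 higher, beside 1089 and 2836 of all 11280 compared genes.

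Growth factor and G protein signals gave single large values. Hbegf, an EGF receptor ligand, had 5.80 RPKM with miR-93, 32.8 RPKM in the control, 17.3 RPKM with miR-106b and 12.9 RPKM with miR-25, and was 5.66-fold lower (-2.50, -2.67 to -2.34). Nrg1, a ligand of the ERBB receptors that acts on myocytes, was higher at 0.93 (0.69 to 1.18). The sphingosine phosphate receptor gene S1pr1 was lower at -2.06 (-2.22 to -1.90), with 4.78 RPKM in the miR-25 library against 5.88 RPKM with miR-93 and 24.5 RPKM in the control. The G protein list otherwise leaned higher, with 13 of 37 higher (35.1%) and 7 lower (18.9%). Over all compared genes 15.1% were higher and 15.6% lower. On the scale of listed genes 18 were higher and 4 lower, beside 2836 and 1089 of all 11280. Agtr1a, the angiotensin receptor, had 4.23 RPKM with miR-93, 1.39 RPKM in the control, 2.22 RPKM with miR-106b and 1.23 RPKM with miR-25, and a log2 ratio of 1.60 (1.21 to 2.01). Adrb1, the main beta receptor of the heart, was higher at 0.93 (0.58 to 1.29), and Adra1a, an alpha receptor, was lower at -1.09 (-1.59 to -0.60) from 56 and 99 reads. Rgs2, which shortens Gq signals, was higher at 1.16 (1.02 to 1.31), with all 3 mimics above the control.

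In the list of PI3 kinase and insulin-like growth factor signalling 9 of 28 genes were lower and 7 higher, or 5 and 8 when scaled to listed genes. Igf2 (1.42, 1.22 to 1.62) and the binding protein genes Igfbp3 (1.63, 1.26 to 2.00), Igfbp5 (1.40, 1.18 to 1.62) and Igfbp4 (1.04, 0.83 to 1.25) were higher, and Igf1 (-0.72), Insr (-0.82), Igf1r (-0.41), Pik3ca (-0.85), Pik3cb (-0.72) and Pik3r1 (-0.69) lower. The kinase gene Mtor (0.39) and the adaptor gene Irs1 (0.40) were higher. In the MAP kinase list 6 of 39 genes were lower (15.4%) and 5 higher (12.8%), near the shares over all compared genes. Scaled to listed genes, 5 of the list were lower and 10 higher, beside 1089 and 2836 of all 11280 compared genes. Mapk14, the p38 alpha kinase, was higher at 1.14 (1.01 to 1.26), from 5.44 to 12.0 RPKM, while Map2k3, a kinase that activates it, was lower at -0.75. Dusp8, a phosphatase of stress kinases, was lower at -1.82 (-2.16 to -1.49), and Dusp6, a phosphatase of ERK, was higher at 0.42 (0.31 to 0.53).

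In the Wnt and Notch list 7 of 18 genes were higher and 3 lower, or 9 and 3 when scaled to listed genes. The receptors went both ways, with Fzd1 higher (0.69, 0.64 to 0.75) and Fzd2 (-1.19, -1.35 to -1.03) and Fzd7 (-1.04, -1.32 to -0.76) lower. Jag1, a Notch ligand, was higher at 0.83 (0.74 to 0.93). Of 11 immediate early genes 4 were lower, Atf3 (-1.61, -1.85 to -1.38), Ier3 (-0.97), Fos (-0.72) and Fosl1 (-0.46, -1.01 to 0.08), whose interval includes 0, and Egr1 (0.46) and Jund (0.49) were higher. Myc (-0.20) and Jun (-0.27) lay within 1.3-fold.

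A list of genes known from published work as targets of the miR-17 seed family was set beside these groups. Of 41 compared, 21 were lower, which is 51.2% against the background of 15.6%, and 6 higher. The median was -0.38 with miR-93 and -0.46 with miR-106b, which shares the seed, and 0.17 with miR-25, which does not, all against the same control library. Scaled to listed genes, 16 were lower and 7 higher, beside 1089 and 2836 of all 11280 compared genes. The miR-93 median of the list was then -0.24, beside 0.14 over all compared genes. The study itself names genes of this list from these libraries, among them Ccnd1 (-1.69), Ccnd2 (-0.89), Cdkn1a (-0.45) and Wee1 (-0.68), so their values are not independent evidence of a direction. No sites in these transcripts were examined here.

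Rhoc, described above, was the lowest of the list. Ccnd1, cyclin D1, had 5.76 RPKM with miR-93, 18.6 RPKM in the control, 7.74 RPKM with miR-106b and 28.4 RPKM with miR-25, so it was below the control with both mimics of that seed and above it with miR-25. Abca1, the cholesterol exporter, had 5.47 RPKM with miR-93, 14.2 RPKM in the control, 4.84 RPKM with miR-106b and 17.0 RPKM with miR-25, and a log2 ratio of -1.38 (-1.47 to -1.29). Fyco1, an adaptor that moves autophagosomes, was at -1.45 (-1.54 to -1.36) and lower in all 3 mimic libraries, at 6.75 RPKM with miR-93, 5.29 RPKM with miR-106b and 9.52 RPKM with miR-25 against 18.4 RPKM. Zbtb4 (-1.38, -1.64 to -1.12) and Btg3 (-1.10, -1.26 to -0.94) were the next lower ones. For Zbtb4 and Btg3 the miR-25 library lay above the control.

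Some other compared members did not fall. Bcl2l11, the gene of the apoptosis activator BIM, had 6.57 RPKM with miR-93, 1.83 RPKM in the control, 4.22 RPKM with miR-106b and 1.27 RPKM with miR-25, and was higher at 1.84 (1.64 to 2.05). Epha4, an ephrin receptor, was higher at 1.44 (1.27 to 1.61), as were Gab1 (0.72), Hif1a (0.62) and Tp53inp1 (0.40). Mapk9 (0.24), Rbl2 (0.14) and Mylip (0.03) lay within 1.3-fold. Nr4a3 and Dusp2 were outside the comparison. So was Limk1, with 0.676 RPKM with miR-93 and 1.64 RPKM in the control, a log2 ratio of -1.28 (-1.66 to -0.90).

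**Figure D5:**
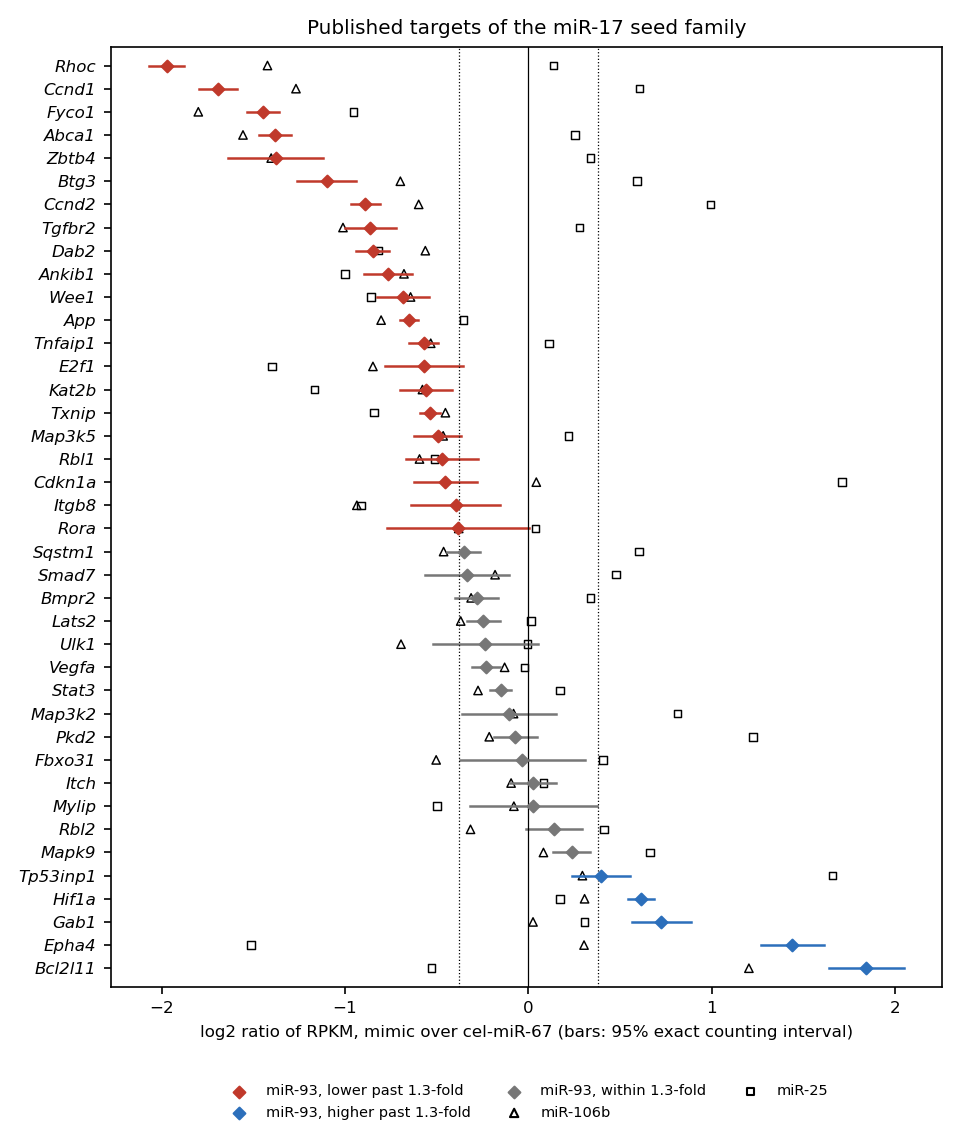
Log2 ratios of RPKM, mimic over cel-miR-67, for published targets of the miR-17 seed family, 1 of the 41 compared not being drawn; filled diamonds are miR-93 with its 95% exact counting interval, open triangles miR-106b, open squares miR-25, and dotted lines mark 1.3-fold. For miR-93, 21 genes lie left of the lower line, from Rhoc to Rora, and 5 of those drawn lie right of the upper one.

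Among genes above 10 RPKM in both libraries with a symbol listed once, a clone without a gene name had the lowest ratio (-2.97). It was lower still with miR-106b (-4.28). Nppa, Enah, Nppb, Fhl1, Rcan1, Gadd45g, Hspb6, Stk38l and Tcap followed it and complete the 10 lowest. Gadd45g, a stress response gene, had 17.2 RPKM with miR-93, 79.1 RPKM in the control, 41.5 RPKM with miR-106b and 41.9 RPKM with miR-25. Hspb6, a small heat shock protein of muscle, had 12.4 RPKM with miR-93, 54.3 RPKM in the control, 22.1 RPKM with miR-106b and 14.5 RPKM with miR-25. For both genes the control library was the highest of the 4. Stk38l, a kinase of the NDR family, was 4.10-fold lower, with 11.1 RPKM with miR-93, 45.3 RPKM in the control, 27.3 RPKM with miR-106b and 39.3 RPKM with miR-25. Nppa, Nppb, Fhl1 and Rcan1 of the marker list and Tcap of the Z-disc thus stood in this group of 10.

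The 10 highest were Myl7, Inha, Ccnb1, Apoe, Eno3, Pgam2, Sh3kbp1, Hist1h3f, Slc6a6 and an entry without a gene name. Eno3, the muscle enolase, had 67.5 RPKM with miR-93, 20.5 RPKM in the control, 44.2 RPKM with miR-106b and 12.7 RPKM with miR-25, a log2 ratio of 1.72 (1.60 to 1.84). Pgam2, the muscle phosphoglycerate mutase of the same pathway, was at 1.69 (1.47 to 1.91), and the creatine kinase gene Ckm, described above, was higher with them. Apoe, a lipid carrier, had 46.0 RPKM with miR-93, 13.7 RPKM in the control, 32.4 RPKM with miR-106b and 13.2 RPKM with miR-25. For Eno3, Pgam2 and Apoe the miR-93 library was the highest of the 4 and the miR-106b library came next. Sh3kbp1, an adaptor of receptor endocytosis, was at 1.43 (1.37 to 1.497), and Slc6a6, the taurine transporter, at 1.29 (1.18 to 1.40). Hist1h3f, a replication-dependent histone gene, and Ccnb1, cyclin B1, were higher still with miR-106b, at 74.0 and 46.1 RPKM against 53.8 and 36.9 RPKM with miR-93. Histone genes are near-identical copies, and the assignment of their reads is uncertain.

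Genes above 1.0 RPKM in only 1 of the 2 libraries were not compared, and numbered 368 with miR-93 and 263 in the control, while 3820 genes were under the limit in both. The most abundant with miR-93 were Efhd1, Vil1, Rxrg, Sost and Fam81a. Rxrg, a retinoid receptor, had 4.35 RPKM with miR-93 and 0.416 RPKM in the control, with 1.61 RPKM in the miR-106b library, and Vil1, an actin severing and bundling protein of epithelia, had 4.69 RPKM with miR-93, 0.347 RPKM in the control and 4.41 RPKM with miR-106b. In the control library the most abundant such genes were Azin2, B3galt2, Htr2a, Mfap3l and Trim16. Azin2, a regulator of polyamine synthesis, had 0.890 RPKM with miR-93 and 6.69 RPKM in the control, and Htr2a, a serotonin receptor, 0.983 and 5.73 RPKM. All these levels are under 10 RPKM in both libraries.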

How the data were processed

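RNA of neonatal rat ventricular cardiomyocytes transfected with 1 of 4 mimics was sequenced, 1 library for each mimic. As the methods and the submitters' processing notes state, the authors removed adaptors with Cutadapt, aligned reads to Rnor 6.0 with STAR 2.7, rounded the gene counts and deposited RPKM values computed with edgeR, each scaled to gene length and library size. The counting program and the use of strand are not given in the sources used here, so overlapping or antisense genes could not be told apart. Highly abundant transcripts weigh on every RPKM value through the library size.

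The ratio of deposited RPKM values, miR-93 over cel-miR-67, was taken with no pseudocount for genes above 1.0 RPKM in both libraries and called past 1.3-fold. Reads were recovered from the steps of the RPKM values, checked against the deposited values and tested on simulated data. They gave the 95% exact (Clopper-Pearson) intervals, which cover counting error only. No count test was run, as the unit is RPKM and each group holds 1 library. Library sizes behind the values, in units of 1000000 reads, were 27.3 with miR-93 and 22.7 in the control.

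Gene lists held 727 symbols, of which 695 matched 1 entry, 5 more than 1 and 27 none, and 596 were compared. The gene lists and members were chosen with earlier results of these data known. Genes named are the 10 highest and 10 lowest ratios above 10 RPKM in both libraries, up to 4 called genes in each direction in each list, a set of 37 sarcomere, actin and signalling genes, and the 5 most abundant genes above 1.0 RPKM in 1 library only in each direction. Other list members named beside them were chosen after their values were seen. A few genes falling under it are left out of the text. The 176 symbols on more than 1 entry stayed out of the lists. Alternatives were other RPKM limits, fold limits, pseudocounts and scalings. Sequences came from RefSeq tables on GRCr8, and coordinates of the 2 builds were not mixed. Computations used Python 3.11.15, numpy 2.4.6, pandas 2.3.3, scipy 1.17.1 and matplotlib 3.10.9.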

Additional observations from a re-analysis of the deposited data

How the results depend on the processing

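With 1 library for each mimic no value has a replicate check, leaving out a replicate was not possible, and the intervals cover counting error only. No paired analysis was possible because each group holds 1 library. The counts of 1707 higher and 1762 lower genes became 411 and 660 above 10 RPKM in both libraries, 781 and 942 past 1.5-fold, and 192 and 289 past 2-fold, as stricter limits leave fewer genes. Scaled to the reads on listed genes they became 2836 and 1089. That scaling moved the median of the hypertrophy lists from -0.09 to 0.054 and of the sarcomere lists from -0.38 to -0.24. The median of the actin lists moved from -0.14 to 0.0095 and that of all compared genes from -0.002 to 0.14. An RPKM limit of 10 moved the median of the hypertrophy lists to -0.26, and the cause of this was not tested. Above 2.0 RPKM in both libraries 1347 genes were higher and 1482 lower, and 1597 and 1675 had intervals leaving out 0. Of 187 named genes, 174 were past 1.3-fold; 173 of them stayed past it in the same direction with 0.1 RPKM added, 157 with 1 RPKM added, 174 when centred on the median gene and 164 when scaled to listed genes. That last scaling brought 10 genes, among them Actn2, Diaph1, Diaph3, Fosl1, Myh11, Myl2, Myom2, Pdgfra and Smyd2, within 1.3-fold, and turned Gata4, Myh7 and Myl3, all within it, from negative to positive. Genes near 1 RPKM rest on few reads, and the median interval reached 0.36 to either side for genes with a mean RPKM of 1 to 3.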

Other observations

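Genes of fatty acid oxidation and its regulators were called in both directions. Of 19 compared, 5 were lower and 4 higher, with a median log2 ratio of -0.007. Esrrg, a nuclear receptor that drives oxidative genes, had 3.32 RPKM with miR-93, 6.56 RPKM in the control, 3.86 RPKM with miR-106b and 2.74 RPKM with miR-25, and was lower at -0.98 (-1.15 to -0.82). Acadl, a dehydrogenase of long chain fatty acids (-0.96, -1.09 to -0.82), and Cd36, a fatty acid carrier (-0.80, -0.84 to -0.75), were lower as well, and for all 3 genes the control library was the highest of the 4. Cpt1a, the liver form of the enzyme that admits fatty acids to mitochondria, was higher at 0.93 (0.79 to 1.07), and the muscle form Cpt1b lay within 1.3-fold at 0.01.

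Interferon response genes, which transfected RNA can induce, gave 3 higher and 2 lower genes of 11 compared. Scaled to listed genes 6 were higher and 0 lower, beside 2836 and 1089 of all 11280 compared genes. The list median on that scale was 0.47, beside 0.14 over all compared genes. Without that scaling the list median was 0.32 for miR-93, 0.21 for miR-106b and -0.71 for miR-25. The miR-93 library was the highest of the 4 for 1 of the 3 higher genes. A response to transfected RNA was not tested. Mx2 (0.79), Oas1a (0.76) and Stat2 (0.45) were higher, Ifit1 (-0.41) and Ifit2 (-0.47) lower, and Isg15 was at -0.004. Of 9 epicardial markers 4 were higher past 1.3-fold (44.4%, beside 15.1% of all compared genes) and 0 lower. On the scale of listed genes 7 were higher and 0 lower, beside 2836 and 1089 of all 11280. Aldh1a2 was at 0.76, Upk3b at 0.70 and Wt1, within the limit, at 0.33. The 9 markers summed to 58.5 RPKM with miR-93, 46.3 RPKM in the control, 54.7 RPKM with miR-106b and 76.6 RPKM with miR-25. The miR-93 library was the highest for 1 of the 4 higher genes. The 5 red cell markers found summed to 13.9 and 7.75 RPKM, and the 4 nerve markers found to 4.36 and 2.76 RPKM. The atrial markers summed to 644 RPKM with miR-93 and 2021 RPKM in the control, a difference that is mostly Nppa.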
